A study of Mus musculus with 12 samples.

Results

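The 10 macrophage marker genes described here were Adgre1, Csf1r, C1qa, C1qb, C1qc, Cd68, Lyz2, Mrc1, Cd163 and Ly6c2. They were taken by gene symbol from tables of whole-kidney RNA sequencing that list 54532 genes, and all 10 were found. The tables hold 12 mice in 4 groups of 3, all of the C57BL/6 strain. β-catenin knockout mice carried floxed β-catenin alleles and Ksp-Cre, which acts in tubular cells of the collecting duct, loop of Henle and distal tubule and in some proximal tubular cells, and they were compared with wild-type mice without the Cre. These 6 mice had unilateral ureteral obstruction (UUO), in which the left ureter is tied for good, and the day of harvest was not given in the sources used here. The other 6, mice labelled CD44 knockout (CD44-/-) and wild-type mice, had unilateral ischemia-reperfusion injury (UIRI). In the study's UIRI model the left renal pedicle is clipped for 30 min, the right kidney is removed on day 10 and the mice are killed on day 11. The study's wild-type mice were males bought at 6 to 8 weeks, and the age of the knockout mice was not given. No uninjured kidney was among the libraries, so levels before injury are not known here.

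Macrophages in the kidney descend from resident cells seeded early in life and from blood monocytes that enter after injury. Monocytes arrive with Ly-6C on their surface, depend on signals through the CSF1 receptor to survive and mature, and gain F4/80 and scavenger receptors as they become macrophages. They engulf dead cells, make the first component of complement and exchange signals with tubular cells and fibroblasts. In RNA of a whole kidney, fewer cells of a type and less RNA per cell cannot be told apart, so that a lower marker below means less of that transcript in the tissue.

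Levels are given in FPKM, the fragments per kilobase of gene length that the authors calculated and scaled for depth. The 12 libraries held 15940405 to 20737443 reads assigned to genes. Ctnnb1, which encodes β-catenin, was at 84.7, 71.4 and 71.7 FPKM in β-catenin knockout mice and at 91.2, 86.7 and 98.5 FPKM in wild-type mice after UUO, lower in every knockout mouse (log2 fold change −0.28, adjusted p = 0.189 from limma). Cd44 was at 19.0, 11.97 and 13.9 FPKM in mice labelled CD44 knockout and at 19.9, 16.3 and 17.8 FPKM in wild-type mice after UIRI. These values overlap (log2 fold change −0.27, adjusted p = 0.339), so the sum of reads over Cd44 did not set the labelled knockout apart, and every direction given for that group rests on its label. The proximal tubule gene Lrp2 was detected in all 12 libraries, from 17.0 to 62.2 FPKM.

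Stretches before the start sites of some members are shown here as a description. RefSeq start sites (GRCm38.p6) were matched for 7 of the 10 members, not for Adgre1, Csf1r and C1qa. The stretch just before the start is printed 5′ to 3′ for the 4 members whose window lies outside the gene as the tables annotate it, and capitals mark GAGGAA, the core of the letters GAGGAAGT that the myeloid transcription factor PU.1 is known to bind, on either strand. They are C1qb (chr4:136886201-136886450, minus strand), Cd68 (chr11:69666171-69666420, minus strand), the more upstream of the starts of Ly6c2 (chr15:75111972-75112221, minus strand, with the full GAGGAAGT in capitals) and Cd163 (chr6:124304401-124304650, plus strand). The window of Cd163 holds no match, and neither does that of Lyz2, which is not printed. Cd163 was the member with the lowest mean in every group, and Lyz2 was the most abundant member in every library.
C1qb: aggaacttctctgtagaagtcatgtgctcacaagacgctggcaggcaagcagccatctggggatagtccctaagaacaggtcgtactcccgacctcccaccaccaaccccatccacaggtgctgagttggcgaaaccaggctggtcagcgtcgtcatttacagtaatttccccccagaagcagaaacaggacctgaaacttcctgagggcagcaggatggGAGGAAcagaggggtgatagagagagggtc
Cd68: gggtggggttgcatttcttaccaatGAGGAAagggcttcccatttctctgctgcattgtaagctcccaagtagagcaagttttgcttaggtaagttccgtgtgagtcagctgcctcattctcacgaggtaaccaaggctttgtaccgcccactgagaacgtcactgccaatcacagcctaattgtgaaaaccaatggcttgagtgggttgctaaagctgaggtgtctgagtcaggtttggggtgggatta
Ly6c2: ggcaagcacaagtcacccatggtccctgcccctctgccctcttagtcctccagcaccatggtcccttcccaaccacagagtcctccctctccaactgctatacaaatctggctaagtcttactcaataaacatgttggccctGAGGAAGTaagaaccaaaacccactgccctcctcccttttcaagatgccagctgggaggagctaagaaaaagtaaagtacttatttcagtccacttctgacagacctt
Cd163: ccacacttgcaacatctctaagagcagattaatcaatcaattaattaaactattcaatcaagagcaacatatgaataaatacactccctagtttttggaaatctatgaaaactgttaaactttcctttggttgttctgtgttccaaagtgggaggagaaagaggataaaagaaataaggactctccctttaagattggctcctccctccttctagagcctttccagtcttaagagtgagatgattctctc
The core lay in the window of 5 of the 7 matched members (C1qb, C1qc, Cd68, Ly6c2 and Mrc1), and in 23.3% of 32851 windows of the same length over all genes. GAGGAAGT, which contains the core, lay in the windows of C1qc and Ly6c2 and in 2.44% of all windows. Counted back from the start site, the core begins at −30 in C1qb, at −225 in Cd68 and at −108 in Ly6c2. These matches are letters in a window, not measured binding, and Spi1, the gene of PU.1, is given with the other myeloid genes below.

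The markers do not lie together in the genome, apart from the C1q genes. In the coordinates of GRCm38 that the tables give, C1qb, C1qc and C1qa lie next to each other on the minus strand of chromosome 4, within 18675 bases from 136880129 to 136898803. Adgre1 (ENSMUSG00000004730) spans 57358691 to 57483527 on chromosome 17, Csf1r (ENSMUSG00000024621) 61105572 to 61132149 on chromosome 18, Cd68 (ENSMUSG00000018774) 69664213 to 69666153 on chromosome 11 and Lyz2 (ENSMUSG00000069516) 117277331 to 117282321 on chromosome 10. Mrc1 (ENSMUSG00000026712) spans 14229392 to 14332057 on chromosome 2, Cd163 (ENSMUSG00000008845) 124304656 to 124330527 on chromosome 6 and Ly6c2 (ENSMUSG00000022584) 75108158 to 75111970 on chromosome 15. The span of Csf1r overlaps that of Hmgxb3 on the other strand, and whether the authors counted by strand was not given in the sources used here.

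After UUO, 8 of the 9 markers tested were lower in β-catenin knockout mice than in wild-type mice, and none was higher (no marker was higher at an unadjusted p under 0.05 either, or with limma's voom). The fall ranged from 0.72 for Csf1r to 1.57 for Adgre1 on the log2 scale. All log2 fold changes here are on the scale of log2(FPKM + 1), which understates the change of low genes. Over all 10 members the median log2 fold change was −1.05, against 0.01 over all genes tested. A gene was called at an adjusted p under 0.05 from limma, and by this rule 4.36% of the 16166 genes tested were lower and 6.21% were higher. In the same 8 members every knockout mouse lay below every wild-type mouse, which held for 15.9% of the genes tested. Cd163 was below the mean of 0.5 FPKM needed for the test and stands outside these counts.

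**Figure D1:**
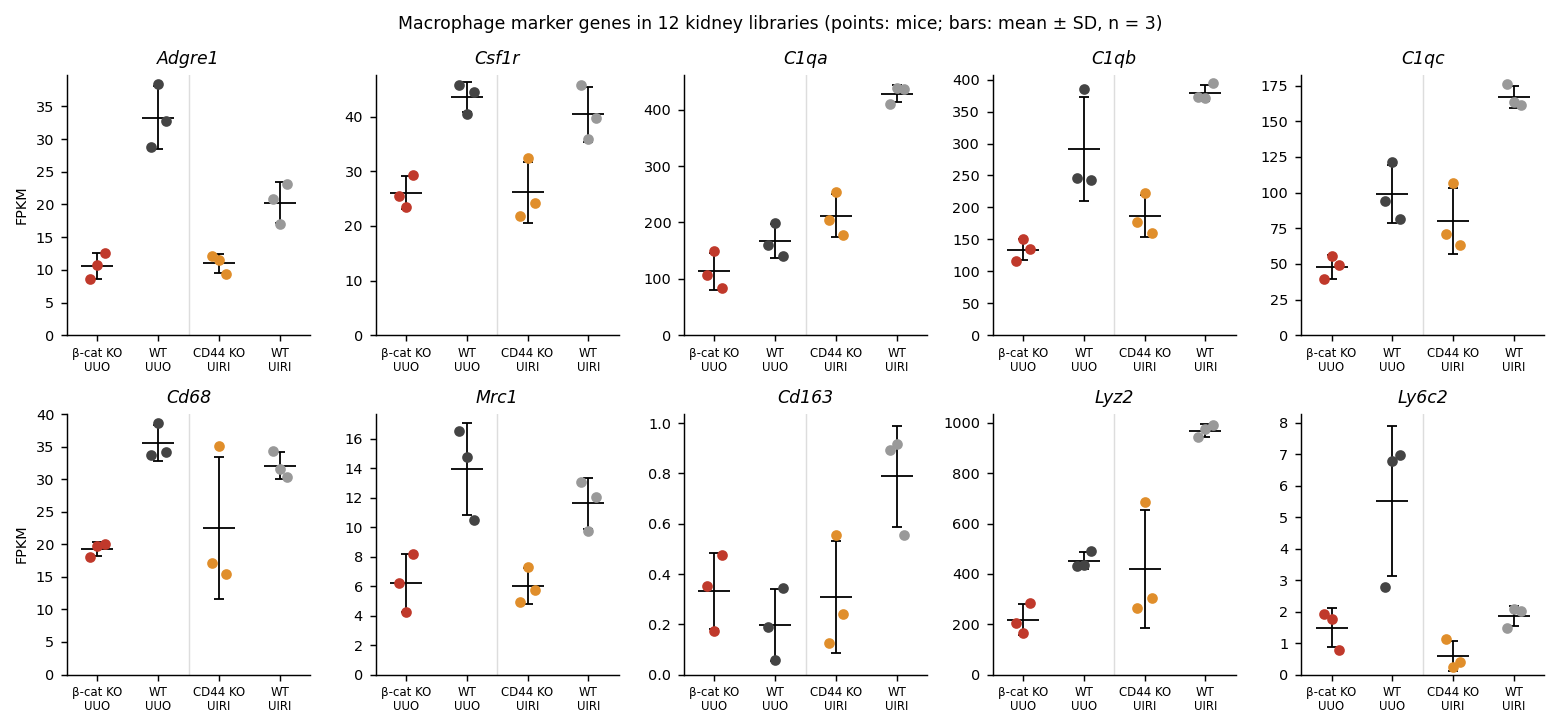
FPKM of each macrophage marker gene (y axis, linear from 0) in the 12 mice by group; points are mice and bars give the mean ± SD (n = 3). After UUO the β-catenin knockout mice lie below all wild-type mice for 8 genes, and in the group labelled CD44 knockout replicate 2 stands above its group for Cd68 and Lyz2.

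Adgre1 encodes F4/80, the surface receptor most used to recognise mouse macrophages. Its level was 8.60, 10.7 and 12.5 FPKM in β-catenin knockout mice and 28.7, 38.4 and 32.7 FPKM in wild-type mice. The highest knockout value was thus below the lowest wild-type value by more than the range of either group. The log2 fold change was −1.57 (adjusted p = 0.00814, standard error 0.17), which leaves 31.9% of the wild-type mean, and its fold change ranked 94 from the lowest of all genes tested. Csf1r, the receptor through which CSF1 and interleukin 34 keep macrophages alive, was at 25.4, 23.5 and 29.4 FPKM against 45.8, 40.5 and 44.5 FPKM. Its groups did not overlap either, but it fell less, by 0.72 (adjusted p = 0.0179, standard error 0.12), to 59.9% of the wild-type mean.

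C1qa, C1qb and C1qc encode the chains of C1q, which binds immune complexes and dying cells and starts the classical complement pathway. C1qb was at 117, 150.0 and 135 FPKM in β-catenin knockout mice and at 246, 385 and 243 FPKM in wild-type mice, with wild-type replicate 2 far above the rest. C1qc was at 39.2, 55.4 and 49.0 FPKM against 94.2, 122 and 81.4 FPKM. Both were at less than 50 percent of the wild-type mean, with log2 fold changes of −1.09 (adjusted p = 0.0252) and −1.03 (adjusted p = 0.0222). C1qa, the third chain, was at 106, 149.5 and 84.6 FPKM against 161, 199.6 and 141 FPKM. Here the groups overlap, because knockout replicate 2 lies above wild-type replicate 3. Its log2 fold change of −0.58 (95% confidence interval −1.13 to −0.03) did not pass the test (adjusted p = 0.149), and it is the member of the 9 tested that was not called.

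Cd68 encodes a glycoprotein of endosomes and lysosomes, and Lyz2 the lysozyme of myeloid cells. Cd68 was at 18.03, 19.8 and 20.01 FPKM in β-catenin knockout mice and at 33.7, 38.7 and 34.2 FPKM in wild-type mice, with a gap between the groups wider than the spread in either. It fell by 0.85 (adjusted p = 0.0104, standard error 0.11). Lyz2, the most abundant member in every library, was at 207, 164 and 284 FPKM against 432, 437 and 491 FPKM. Its log2 fold change was −1.08 (adjusted p = 0.0260, standard error 0.22). Lyz2 is also made by neutrophils, and the neutrophil gene S100a8 was at 183 FPKM in wild-type replicate 3 and at 9.58 and 10.1 FPKM in the other wild-type mice. Without that library the log2 fold change of Lyz2 was −1.02 (adjusted p = 0.0683 from limma). Lyz2 was called in 1 of the 6 fits with a library left out, that without β-catenin knockout replicate 3. Leaving out 1 mouse cannot measure the part of neutrophils in the Lyz2 values of the others, and that part was not tested.

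Mrc1, the mannose receptor, and Cd163, which takes up haemoglobin bound to haptoglobin, are scavenger receptors of tissue macrophages. Mrc1 was at 6.22, 4.22 and 8.17 FPKM in β-catenin knockout mice and at 16.6, 14.8 and 10.5 FPKM in wild-type mice, where replicate 3 was the lowest. The log2 fold change was −1.07 (adjusted p = 0.0351, standard error 0.24). Cd163 was near the limit of detection, at 0.351, 0.173 and 0.474 FPKM from 15 to 46 reads in knockout mice and at 0.189, 0.0587 and 0.345 FPKM from 6 to 32 reads in wild-type mice. Its groups overlap and it was the only member with a higher mean in the knockout mice, without a test. Ly6c2, which encodes the Ly-6C of inflammatory monocytes, was at 1.91, 1.77 and 0.780 FPKM against 2.76, 6.78 and 6.98 FPKM. The knockout mean was 27.0% of the wild-type mean, the lowest share of the members, and the log2 fold change of −1.34 (adjusted p = 0.0445, standard error 0.33) lay close to the threshold.

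The calls after UUO depended on single libraries to a different degree. Adgre1 and Cd68 were called with any of the 6 libraries left out (highest adjusted p 0.0414 and 0.0476). Leaving out β-catenin knockout replicate 1, 2 or 3 gave 2, 3 or 7 lower members in place of 8, and leaving out wild-type replicate 1, 2 or 3 gave 3, 2 or 6. The number of genes called lower in the whole table moved as well, to between 98 and 818 in place of 705. No member tested turned its direction, and the lowest size of each remained between 0.39 for C1qa and 1.44 for Adgre1 on the log2 scale. Rescaling every library to the same total (TPM) moved the median of all genes to −0.16, and with it the calls over all genes from 41.3% lower to 67.4% lower. Under that scaling 9 members were lower, C1qa among them (adjusted p = 0.0325), with a median of −1.25.

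After UIRI, 5 of the 10 markers were lower in mice labelled CD44 knockout, Adgre1, Mrc1 and the genes of all C1q chains, and none was higher by limma, by voom or at an unadjusted p under 0.05. The median log2 fold change of the members was −0.87, against 0.00 over all genes tested. Of the 16113 genes tested, 2.19% were lower and 4.02% were higher. In 9 members, all but Cd68, every mouse labelled knockout lay below every wild-type mouse, which held for 14.5% of the genes tested.

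C1qa was at 205, 253 and 178 FPKM in mice labelled CD44 knockout and at 411, 439 and 437 FPKM in wild-type mice after UIRI. C1qb was at 178, 223 and 160.1 FPKM against 372, 372 and 394 FPKM, and C1qc at 71.1, 107 and 63.0 FPKM against 176, 164 and 161 FPKM. The wild-type mice were close to each other, with coefficients of variation of 3.34% to 4.70%, and the labelled knockout mice spread more widely, at 17.4% to 28.9%. The chains fell together, by 1.03 for C1qa, 1.03 for C1qb and 1.08 for C1qc on the log2 scale (adjusted p = 0.0267, 0.0267 and 0.0345). Each mean was between 48.0% and 49.5% of the wild-type mean.

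Adgre1 was at 12.1, 11.5 and 9.42 FPKM in mice labelled CD44 knockout and at 20.8, 17.0 and 23.1 FPKM in wild-type mice, without overlap. The log2 fold change was −0.82 (adjusted p = 0.0310, standard error 0.14). Mrc1 was at 4.94, 7.33 and 5.71 FPKM against 13.1, 9.72 and 12.1 FPKM and fell by 0.86 (adjusted p = 0.0352). Csf1r was at 21.8, 32.4 and 24.2 FPKM against 45.8, 35.9 and 39.7 FPKM. The groups of Csf1r do not overlap, but its log2 fold change of −0.62 (95% confidence interval −1.01 to −0.23) did not pass the test across genes (adjusted p = 0.0687).

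Lyz2 had the most negative fold change after UIRI on the log2(FPKM + 1) scale and was not called. As a share of the wild-type mean FPKM it was at 43.2%, above Ly6c2 at 31.4% and Cd163 at 39.0%. It was at 266, 687 and 303 FPKM in mice labelled CD44 knockout and at 943, 974 and 992 FPKM in wild-type mice (log2 fold change −1.34, standard error 0.35, adjusted p = 0.0666). Cd68 was at 17.1, 35.1 and 15.4 FPKM against 34.4, 31.6 and 30.3 FPKM (log2 fold change −0.58, adjusted p = 0.243). In both genes replicate 2 of the labelled knockout stands far above its group, and in Cd68 it is the highest of all 6 mice. Cd163 was at 0.127, 0.555 and 0.242 FPKM against 0.894, 0.915 and 0.555 FPKM, with the highest labelled knockout value and the lowest wild-type value equal to 3 digits, and was not called (log2 fold change −0.46, adjusted p = 0.150). Ly6c2 was at 1.12, 0.243 and 0.389 FPKM against 1.48, 2.08 and 2.01 FPKM, with 11 to 53 reads against 68 to 109 reads, and was not called (log2 fold change −0.88, adjusted p = 0.0616).

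Without replicate 2 of the mice labelled CD44 knockout, 8 members were lower, Csf1r (adjusted p = 0.0143), Cd68 (adjusted p = 0.00505) and Lyz2 (adjusted p = 0.00317) with the 5 called before. Without any other of the 6 libraries, 0 members were called, with limma's adjusted p of Adgre1, C1qa, C1qb, C1qc and Mrc1 up to 0.132, while every member stayed negative. The 5 calls therefore needed every library other than replicate 2 of the labelled knockout. By voom on recovered reads 8 members were lower, without a filter on low values 0 were, and under TPM 6 were, where the calls over all genes moved from 35.3% lower to 68.6% lower. The number of genes called lower in the whole table moved as well, from 353 to 711 by voom, 467 under TPM and 20 without a filter. It ran from 1 to 763 with a library left out.

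**Figure D2:**
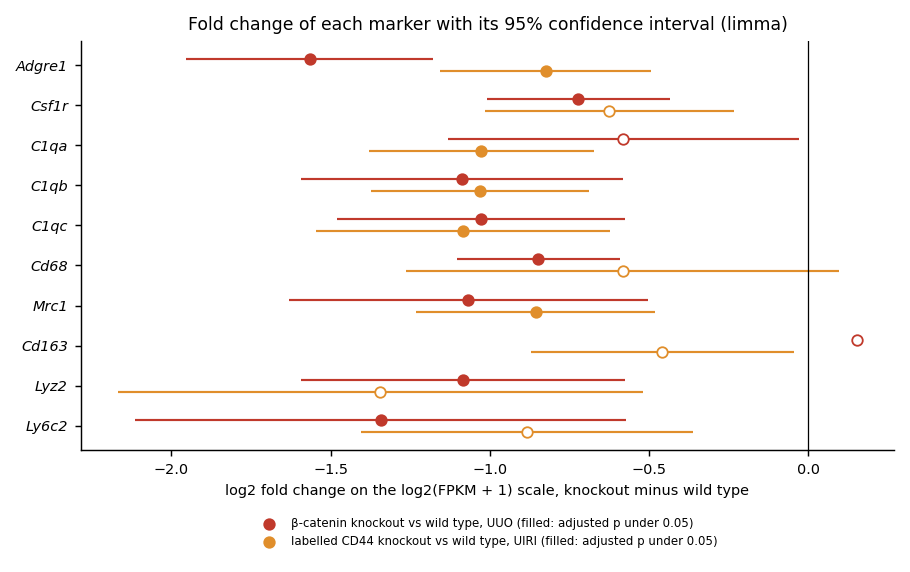
log2 fold change (x axis, log2(FPKM + 1) scale) of each marker, knockout minus wild type, in both comparisons, with 95% confidence intervals from limma; filled points passed an adjusted p under 0.05, and Cd163 after UUO has no interval because it was not tested. Intervals of the comparisons overlap for most genes, and Adgre1 lies furthest from 0 after UUO at −1.57.

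The knockouts were compared in the size of these changes by a fit over all 12 libraries with 1 common scaling. None of the 9 members tested differed at an adjusted p under 0.05 by limma or by voom, and 1 did at an unadjusted p under 0.05. Over all genes 1 of 16202 was called, which is 0.00617%. The member with the unadjusted difference was Adgre1, where the log2 fold change in β-catenin knockout mice minus that in mice labelled CD44 knockout was −0.73 (95% confidence interval −1.23 to −0.22, unadjusted p = 0.00878, adjusted p = 0.230). For Csf1r the difference was −0.08 (−0.54 to 0.37), for C1qb −0.04 (−0.63 to 0.55) and for C1qc 0.07 (−0.56 to 0.71). For C1qa it was 0.46 (−0.18 to 1.10) and for Lyz2 0.28 (−0.69 to 1.24). For Cd68 it was −0.25 (−0.97 to 0.47), for Mrc1 −0.20 (−0.88 to 0.49) and for Ly6c2 −0.46 (−1.42 to 0.50). Apart from that of Adgre1, each interval includes 0, which does not show the changes to be alike. Injury, targeted gene and table differ at once between the comparisons and cannot be told apart.

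Across the 4 groups the order of the levels was not the same for each marker. These levels are a description, since the tables were normalised separately and the injuries lie in different tables, and the means here are FPKM under the common scaling. Adgre1 was highest in wild-type mice after UUO (33.5 ± 5.04 FPKM, SD, n = 3), then in wild-type mice after UIRI (20.1 ± 2.92), then in mice labelled CD44 knockout (10.9 ± 1.47) and β-catenin knockout mice (10.8 ± 2.03). The last pair overlaps and each earlier step does not. Csf1r, Cd68 and Mrc1 shared the order of wild-type groups, but with values of the wild-type groups that overlap. For Csf1r the means were 43.9 and 40.2 FPKM in wild-type mice after UUO and UIRI, and 26.5 and 25.9 FPKM in the knockout groups.

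C1qa, C1qc, Lyz2 and Cd163 were highest in wild-type mice after UIRI, with no overlap with the next group. Lyz2 was at 963 ± 23.7 FPKM there and at 456 ± 33.6 FPKM in wild-type mice after UUO, and C1qa at 425 ± 16.2 and 168 ± 30.4 FPKM. In mice labelled CD44 knockout the mean of C1qa (210.1 FPKM) was still above that of wild-type mice after UUO, although the values of these groups overlap. C1qb was at 377 FPKM in wild-type mice after UIRI and 293 FPKM after UUO, where the single high mouse makes the groups overlap. Ly6c2 ran the other way, at 5.55 ± 2.41 FPKM in wild-type mice after UUO and 1.84 ± 0.331 FPKM after UIRI, without overlap.

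Ratios within a library do not depend on how libraries were scaled. In UUO libraries C1qb exceeded C1qa in all 6 mice, with C1qa-to-C1qb ratios of 0.909, 0.997 and 0.627 in β-catenin knockout mice against 0.654, 0.518 and 0.582 in wild-type mice. In UIRI libraries C1qa exceeded C1qb in all 6 mice, at 1.15, 1.13 and 1.11 in mice labelled CD44 knockout and 1.10, 1.18 and 1.11 in wild-type mice. The C1qa-to-C1qb ratio was thus near-constant across mice after UIRI, and lower and more variable after UUO. C1qc-to-C1qb ratios lay between 0.316 and 0.384 in UUO libraries and between 0.393 and 0.477 in UIRI libraries.

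Set against Adgre1, some markers stood at higher ratios in β-catenin knockout mice than in wild-type mice after UUO, and others did not. Adgre1 had the most negative log2 fold change of the members tested there, and 0.575% of all genes tested had a lower one. Most genes would therefore stand at a higher ratio to it, so a higher ratio is not particular to the markers named. The ratio of Csf1r to Adgre1 was 2.96, 2.20 and 2.35 in knockout mice against 1.60, 1.05 and 1.36 in wild-type mice, and that of Cd68 to Adgre1 was 2.10, 1.84 and 1.60 against 1.17, 1.01 and 1.05. C1qa to Adgre1 was 12.3, 13.95 and 6.75 against 5.59, 5.20 and 4.32. None of these ratios overlaps between the groups. Mrc1 to Adgre1 overlaps, at 0.394 to 0.724 in knockout mice against 0.321 to 0.576, and so does Ly6c2 to Adgre1, at 0.0623 to 0.222 against 0.0962 to 0.213. The ratios named were chosen after the values were seen and have no test, and 3 mice against 3 cannot go below an exact two-sided permutation p of 0.1. After UIRI the same ratios overlap between the labelled knockout and wild-type mice.

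Against Ptprc, which encodes the CD45 of all white blood cells, Adgre1 stood at a similar ratio in all groups. The Adgre1-to-Ptprc ratio was 3.97, 3.55 and 3.71 in β-catenin knockout mice against 3.67, 3.93 and 3.25 in their wild-type group. After UIRI it was 3.87, 4.10 and 3.53 in mice labelled CD44 knockout against 4.52, 4.16 and 3.12. The values overlap in both comparisons. The mean of Adgre1 was 31.9% and that of Ptprc 31.0% of the wild-type mean in β-catenin knockout mice, and 54.2% and 53.4% in mice labelled CD44 knockout, where Ptprc did not pass the test (adjusted p = 0.0765). Csf1r to Ptprc lay between 7.80 and 11.7 in β-catenin knockout mice, above the 4.15 to 5.85 of the wild-type mice, and overlapped after UIRI.

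**Figure D3:**
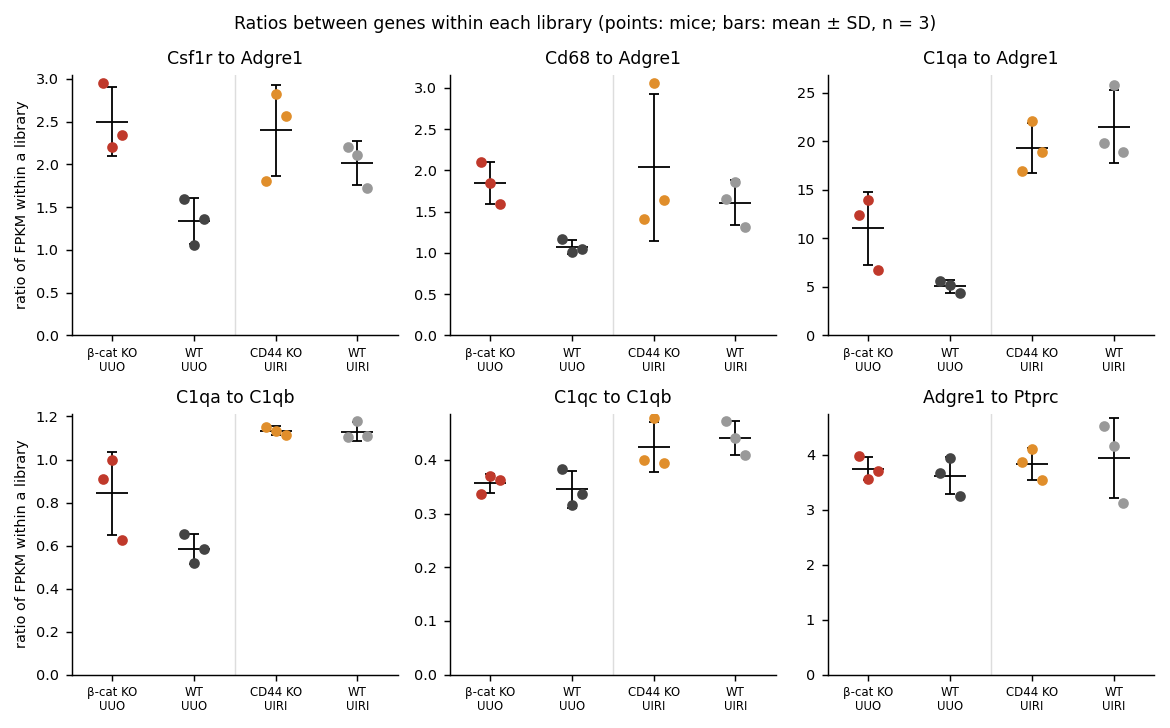
Ratios of FPKM between genes within each library (y axis, linear from 0) by group; points are mice and bars give the mean ± SD (n = 3). C1qa to C1qb lies above 1.10 in all UIRI libraries and below 1.00 in all UUO libraries, and Adgre1 to Ptprc lies between 3.12 and 4.52 in all 12.

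Within groups the members did not all vary together from mouse to mouse. Of the 45 pairs of members, 33 had a positive Pearson correlation of their deviations from the group mean over the 12 libraries, with a median r of 0.29. These correlations are a description over libraries that share their groups, with no test. The highest was between C1qb and C1qc (r = 0.897), neighbours on chromosome 4. Csf1r and Lyz2 (r = 0.839), C1qc and Cd68 (r = 0.828) and Cd68 and Lyz2 (r = 0.819) followed. The mean deviation of the 10 members was 0.31 in replicate 2 of the mice labelled CD44 knockout and between −0.21 and 0.15 in the other libraries. That replicate lay above its group mean by 0.84 for Lyz2 and 0.70 for Cd68, more than any other library did for these genes. How far the pair correlations rest on it was not tested. The most negative pairs were Ly6c2, the monocyte gene, with Mrc1 (r = −0.715) and with Csf1r (r = −0.657).

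The mean deviation of the 10 members was used to name the genes most like them, among 14192 other genes averaging 1 FPKM or more. These were C3ar1 (r = 0.958), Fut4 (r = 0.934), P2ry6 (r = 0.931), Laptm5 (r = 0.910), Pgm1 (r = 0.908), Slc1a5 (r = 0.907), Mbd2 (r = 0.904) and Rps15a-ps6 (r = 0.898), over 12 libraries. C3ar1 encodes the receptor for the complement fragment C3a, P2ry6 a receptor for nucleotides and Laptm5 a lysosomal membrane protein of blood cells. Without the 3 mice labelled CD44 knockout, the same correlations were 0.838 for C3ar1, 0.828 for Rps15a-ps6, 0.813 for Fut4 and 0.778 for P2ry6. They were 0.739 for Pgm1, 0.710 for Laptm5, 0.667 for Slc1a5 and 0.589 for Mbd2. C3ar1 was at 5.06 FPKM in β-catenin knockout mice and 16.1 FPKM in wild-type mice after UUO (log2 fold change −1.49, adjusted p = 0.00814), and at 4.90 and 6.10 FPKM in the UIRI groups (−0.37, adjusted p = 0.523). Mbd2, a reader of DNA methylation found in most cells, was at 50.0 and 49.7 FPKM in the UUO groups, with a log2 fold change of 0.01. Rps15a-ps6 was at 5.15 and 5.10 FPKM in the same groups, with a log2 fold change of 0.06.

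**Figure D4:**
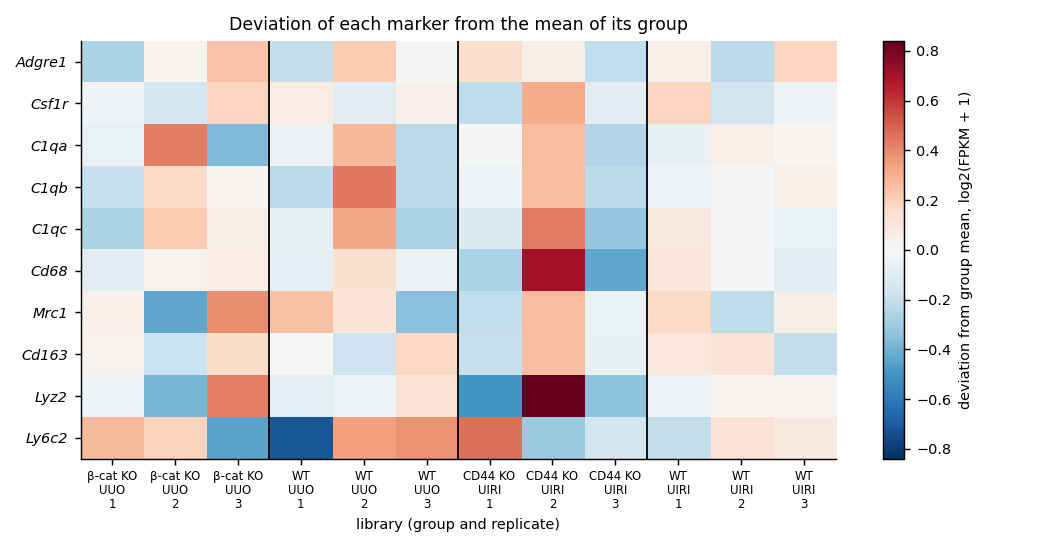
Deviation of each marker (rows) in each library (columns) from the mean of its own group, in log2(FPKM + 1) under the common scaling; red is above and blue below the group mean. Replicate 2 of the mice labelled CD44 knockout is above its group for 9 of 10 members and below it for Ly6c2.

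Other genes of the macrophage program were read from lists chosen for their roles. Among 16 other monocyte and macrophage genes tested after UUO, 11 were lower in β-catenin knockout mice and 0 were higher, with a median log2 fold change of −1.06. Fcgr1, the high-affinity receptor for IgG, was at 7.27 FPKM in knockout mice and 24.9 FPKM in wild-type mice (−1.62, adjusted p = 0.00981), and Tyrobp, an adaptor of myeloid receptors, at 43.5 and 86.6 FPKM (−0.98, adjusted p = 0.00981). Both were called in all 15 alternatives. Cx3cr1, the fractalkine receptor, fell by 1.06 (adjusted p = 0.0132) and Clec7a, the receptor for fungal glucans, by 1.24 (adjusted p = 0.0153). The count of 11 became 2 without wild-type replicate 2, and 6, 6 and 7 without β-catenin knockout replicate 1, replicate 2 and wild-type replicate 1.

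Of 16 genes of the CSF1 axis and of myeloid transcription factors, 4 were lower and 2 were higher after UUO, with a median of −0.37. Spi1, the gene of PU.1, was at 5.69, 7.86 and 6.35 FPKM in β-catenin knockout mice and at 14.5, 19.5 and 21.6 FPKM in wild-type mice (log2 fold change −1.35, adjusted p = 0.0107). Zeb2 fell by 0.82 (adjusted p = 0.0144), Csf2ra, a receptor subunit for GM-CSF, by 0.81 (adjusted p = 0.0154) and Runx1 by 0.88 (adjusted p = 0.0214). The higher genes, Maf (0.72, adjusted p = 0.0236) and Klf4 (0.65, adjusted p = 0.0399), are also expressed in kidney cells other than macrophages, and are named here after their values were seen. Neither was called under TPM. The ligands of the CSF1 receptor did not pass the test, at −0.43 for Csf1 and 0.40 for Il34. Without wild-type replicate 2, 0 genes of the list were called lower or higher. The 2 higher calls were also 0 without knockout replicate 2, and 1 without knockout replicate 1, knockout replicate 3 or wild-type replicate 1.

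Few genes of macrophage activation passed the test, though most had negative log2 fold changes. After UUO 10 of 11 inflammatory and 12 of 12 alternative activation genes were negative. Of these, 4 and 3 were lower at an unadjusted p under 0.05 from limma, and 0 were higher. Over all genes tested 4.36% were called lower at an adjusted p under 0.05. Of 11 inflammatory genes 2 were lower after UUO, Cd86, which gives T cells a second signal (−1.34, adjusted p = 0.0129), and the chemokine Cxcl9 (−2.23, adjusted p = 0.0236), with a median of −1.10 for the list. Il1b was at 0.579, 2.60 and 4.31 FPKM against 7.43, 7.11 and 112 FPKM, with the high value in wild-type replicate 3, the mouse with high S100a8, and did not pass (adjusted p = 0.132). Of 12 genes of alternative activation Ccl22 was called lower (−1.26, adjusted p = 0.0196), with a median of −0.96. Phagocytosis and lysosome genes had a median of −0.01, with Axl, a receptor for dying cells (−0.94, adjusted p = 0.00981), and the cathepsin Ctss (−1.34, adjusted p = 0.0283) lower among 17 tested. Of 10 genes of complement components, regulators and receptors 4 were lower. Of these, C3ar1 (given above) and Itgb2, an integrin subunit of the leukocyte complement receptors (−1.59, adjusted p = 0.0107), are receptor genes of white blood cells. The others were the C1 inhibitor Serping1 (−1.51, adjusted p = 0.0116) and the protease C1s1 of the classical pathway (−0.82, adjusted p = 0.0245). Without wild-type replicate 2 the lower genes were 0 of the inflammatory, 0 of the alternative activation, 1 of the phagocytosis and 2 of the complement list. The inflammatory count was 1 without wild-type replicate 1 or knockout replicate 1 or 2. The alternative activation count was 0 without wild-type replicate 1 or knockout replicate 1 and 4 without wild-type replicate 3. That of phagocytosis was 1 without knockout replicate 1 or any wild-type library.

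In mice labelled CD44 knockout 6 of 16 other monocyte and macrophage genes were lower after UIRI, among them Tyrobp (−1.17, adjusted p = 0.0267) and the inhibitory receptor Cd300a (−0.86, adjusted p = 0.0267), with a list median of −0.64. Of the CSF1 axis and transcription factors 2 of 16 were lower, Csf2rb (−0.75, adjusted p = 0.0413) and Csf2ra (−0.51, adjusted p = 0.0494). Tnf (−0.89, adjusted p = 0.0326) and Cxcl9 (−1.74, adjusted p = 0.0348) were among 3 of 8 inflammatory genes lower, and Ccl22 (−1.30, adjusted p = 0.0267) and Clec10a (−1.05, adjusted p = 0.0494) were the 2 of 12 alternative activation genes lower. Phagocytosis and lysosome genes went both ways, with 1 lower and 4 higher of 18, among the latter Gas6, a ligand that bridges dying cells to phagocytes (0.64, adjusted p = 0.0288), and Lgmn, a lysosomal protease (0.61, adjusted p = 0.0406). The complement genes C1s1 (−0.62, adjusted p = 0.0267) and Serping1 (−0.99, adjusted p = 0.0286) were among 3 of 10 lower. Every count of called list genes after UIRI, here and for the other cell types below, was 0 without any 1 of the 6 libraries other than replicate 2 of the labelled knockout. Without that replicate 9 other monocyte and macrophage genes, 4 of the CSF1 axis and 5 complement genes were lower, and 5 phagocytosis and lysosome genes were lower and 5 higher.

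Markers of other cells moved beside the macrophage markers, and their part in the results was not tested. All 8 pan-leukocyte genes were lower in β-catenin knockout mice, from Laptm5 (−1.04, adjusted p = 0.00764) and Rac2 (−1.45, adjusted p = 0.00935) to Lcp1 (−1.61, adjusted p = 0.00848) and Ptprc (−1.41, adjusted p = 0.00860), with a median of −1.31. Their summed level was 95.4 to 128 FPKM in knockout mice and 225 to 312 FPKM in wild-type mice. The 8 calls became 4 without wild-type replicate 2 and 6 or 8 without any other library. In mice labelled CD44 knockout 7 of 8 were lower, among them Coro1a (−0.96, adjusted p = 0.0267) and Arhgdib (−0.87, adjusted p = 0.0267), with sums of 112 to 137 FPKM against 229 to 303 FPKM.

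Of the lymphocyte and dendritic cell markers fewer passed after UUO. Of 9 T and NK cell markers 0 were called lower by limma (4 at an unadjusted p under 0.05 and 3 by voom), with a median of −0.60 and Cd3e at 0.271 to 0.370 FPKM in knockout mice and 0.548 to 1.44 FPKM in wild-type mice. Of 8 dendritic cell markers 3 were lower, Itgax (−1.49, adjusted p = 0.0386), Ccr7 (−0.99, adjusted p = 0.0434) and Zbtb46 (−0.49, adjusted p = 0.0474), all lost without wild-type replicate 1 or 2 or knockout replicate 1 or 2, with 1 called without knockout replicate 3 and 6 without wild-type replicate 3. In the absence of that library, the one with high S100a8, 3 T and NK cell markers and 1 neutrophil marker were called lower as well. Neutrophil markers summed to 15.1 to 58.0 FPKM in knockout mice and to 33.7, 33.8 and 570.1 FPKM in wild-type mice, with 0 of 6 called by limma or voom and 1 at an unadjusted p under 0.05. In mice labelled CD44 knockout 4 of 7 T and NK cell markers were lower, among them Lck (−1.11, adjusted p = 0.0267) and Nkg7 (−1.46, adjusted p = 0.0267). There, 0 of 5 neutrophil markers (4 at an unadjusted p under 0.05, 0 by voom) and 0 of 8 dendritic cell markers (7 at an unadjusted p under 0.05, 2 by voom) were called by limma. The B cell gene Cd79a was between 0.0808 and 0.694 FPKM, and of the B cell and the mast cell markers 1 each was abundant enough to be tested, Cd79b and Kit, with none called by limma or voom or at an unadjusted p under 0.05 in either comparison. Of 6 mast cell markers 2 or 3 were at 0 in all mice of a group.

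Some fibroblast markers fell with the macrophage markers and some tubule markers rose. After UUO 4 of 8 fibroblast and myofibroblast markers were lower, Pdgfra (−1.33, adjusted p = 0.0157), Pdgfrb (−0.95, adjusted p = 0.0183), the collagen Col3a1 (−1.40, adjusted p = 0.0278) and decorin, Dcn (−0.98, adjusted p = 0.0345). Of 10 tubule markers 6 were higher, among them the transporters Slc34a1 (1.60, adjusted p = 0.0181) and Slc22a6 (1.61, adjusted p = 0.0248) and the endocytic receptor Lrp2 (0.91, adjusted p = 0.0276). The summed tubule level was 2082 to 2305 FPKM in β-catenin knockout mice and 906 to 1111 FPKM in wild-type mice. In mice labelled CD44 knockout 2 of 8 fibroblast markers were lower, Dcn (−1.10, adjusted p = 0.0265) and Pdgfra (−0.83, adjusted p = 0.0286), and 4 of 10 tubule markers higher, among them Slc22a6 (2.02, adjusted p = 0.0301) and Cubn (1.07, adjusted p = 0.0362). After UUO these counts were 0 lower fibroblast markers without wild-type replicate 1 or 2, and 0 higher tubule markers without wild-type replicate 1 or 2 or knockout replicate 2. They were 2 without wild-type replicate 3 or knockout replicate 2 for the fibroblast markers and 3 without knockout replicate 1 for the tubule markers. Of 7 endothelial markers Pecam1 was lower after UUO (−0.53, adjusted p = 0.0355), a call lost without wild-type replicate 1, 2 or 3 or knockout replicate 1 or 2, and 0 were called after UIRI by limma or voom (2 at an unadjusted p under 0.05).

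**Figure D5:**
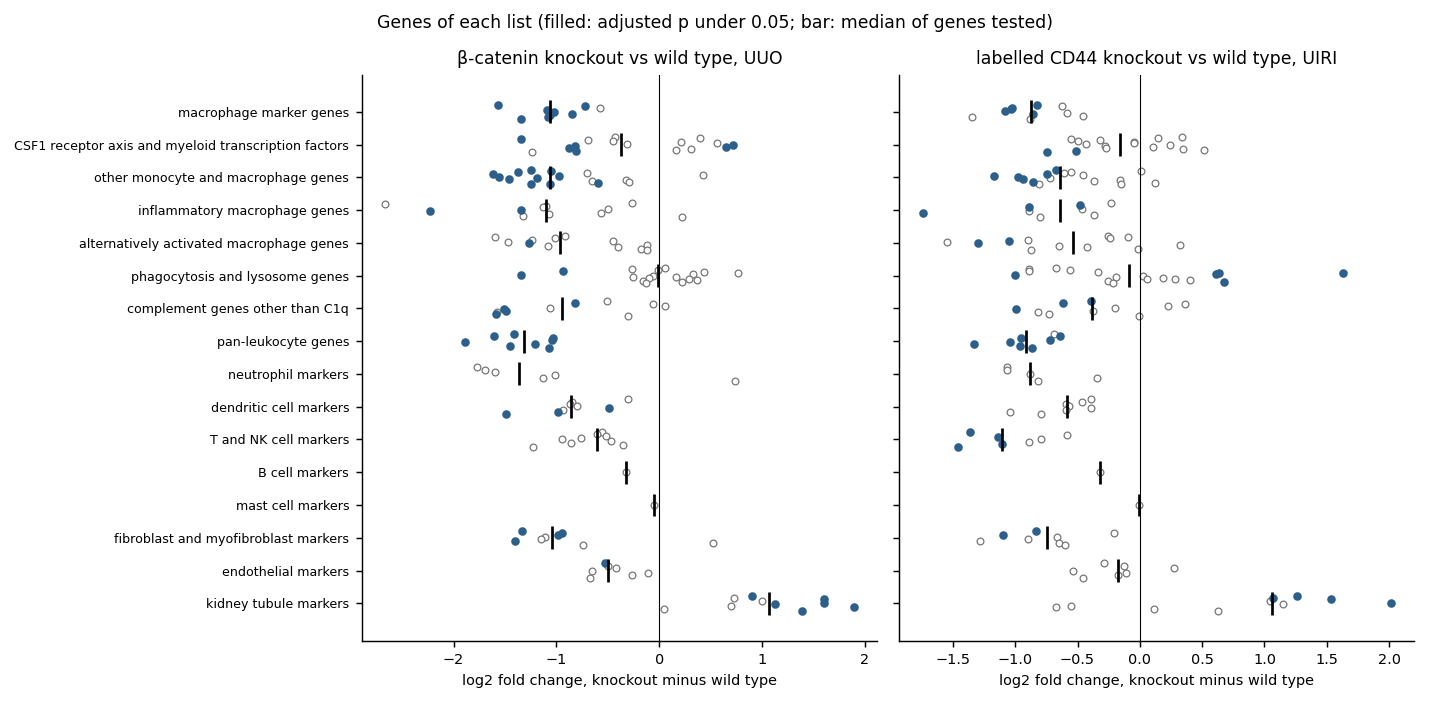
log2 fold change (x axis, log2(FPKM + 1) scale) of each gene tested in 16 lists (rows), for the β-catenin knockout after UUO on the left and the labelled CD44 knockout after UIRI on the right; filled points passed an adjusted p under 0.05 and bars are medians. Macrophage markers have medians of −1.07 among the 9 tested and −0.87, pan-leukocyte genes of −1.31 and −0.91, and tubule markers of 1.07 and 1.06.

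Reads of near-identical genes could be divided differently by the counting for a small part of these markers. Of the 100-base stretches in GENCODE transcripts of Ly6c2, 5.81% also occur in Ly6c1, a gene of endothelial cells, and of those of Lyz2 1.97% occur in Lyz1. The other 8 members share none with another gene. Ly6c1 was at 33.5 to 53.4 FPKM in β-catenin knockout mice and 58.9 to 107 FPKM in wild-type mice after UUO, far above Ly6c2, so the Ly6c2 values are the less certain. Lyz1 was between 0.0920 and 0.408 FPKM in the UUO libraries and between 2.12 and 11.004 FPKM in the UIRI libraries, where Lyz2 was at 266 FPKM or more.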

How the data were processed

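Whole-kidney RNA of 12 mice was sequenced by the authors (NEBNext Ultra kit). Per the labels and methods, HISAT2 2.0.5 and featureCounts 1.5.0-p3 were used on GRCm38. The authors deposited FPKM, with 1 table for each knockout, and their own DESeq2 1.20.0 comparisons in these tables were not used. Wild-type columns bear the same names in both tables and were given to UUO or UIRI through the knockout in the same table. FPKM times gene length gave whole reads for 100% of values (within 0.01 read), and the depth term matched median-of-ratios size factors. The strand and multi-mapping settings of the counting were not given in the sources used here. No library differed from another of its own group by less than the sampling noise. Libraries of different groups were not compared in this way, and the labels name no batch.

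Each table was fitted with limma 3.58.1 in R 4.3.3 (lmFit, eBayes with trend, two-sided, Benjamini-Hochberg adjusted over all genes tested, threshold 0.05) on log2(FPKM + 1), for genes averaging 0.5 FPKM or more. The fit of the difference used all 12 libraries, with FPKM recomputed from the recovered reads under 1 scaling. Python 3.11.15, NumPy 2.4.6, pandas 2.3.3, SciPy 1.17.1 and Matplotlib 3.10.9 were used for the rest, and the fit was tested on simulated data.

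The members and lists were chosen with earlier results of these data known. The rule for named genes took all members, the targeted genes, up to 4 genes of each other list with the smallest p after UUO and up to 2 after UIRI, defining markers of other cell types, and the 8 genes most like the members. Not each of them is printed. As alternatives, the pseudocount was set to 0.1 or 0.01, the filter was dropped or raised to 1 FPKM, libraries were rescaled to TPM or by median-of-ratios over the tested genes, the trend was dropped, voom was run on the recovered reads, a replicate block was added, and libraries were left out in turn. The difference fit on FPKM as deposited was added after seeing the data.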

Additional observations from a re-analysis of the deposited data

How the results depend on the processing

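With 3 mice per group the counts of called members depend on filter and library, while the directions held. After UUO the 8 lower members became 3 without a filter on low values, and 2 to 7 with a library left out. After UIRI the 5 became 0 without a filter, 8 with voom and 0 to 8 with a library left out. The median log2 fold change after UUO was −1.25 under TPM and −1.09 to −0.87 with a library left out, and after UIRI it stayed between −1.05 and −0.82 under every alternative. Without a filter many more genes enter the adjustment, and the fits with a library left out hold fewer mice. The causes of the changes in these counts were not tested. Over all genes, 98 to 818 were lower and 130 to 1631 higher after UUO with a library left out, against 705 and 1004, and 1 to 763 and 0 to 1417 after UIRI, against 353 and 648. Without a filter they were 193 and 280 after UUO and 20 and 43 after UIRI, with TPM 564 were higher after UUO and 214 after UIRI, and with voom 711 were lower after UIRI and 1024 after UUO.

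Deviations of same-numbered mice correlated at r = 0.08, 0.20 and 0.04 after UUO and at −0.14, −0.03 and −0.03 after UIRI. Those of differently numbered mice ran from −0.16 to 0.08 after UUO and from −0.11 to 0.15 after UIRI. These weak values, positive for each same-numbered pair after UUO, cannot decide whether mice were paired. The replicate number was not used as a pairing because the sources tie it to no shared animal, litter or day. With the replicate block 6 members were lower after UUO and 0 after UIRI.

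No member was called for a difference between the knockouts under any alternative. Of these differences, some small ones changed sign. With a library left out they ran from −0.19 to 0.0737 for Csf1r, −0.15 to 0.18 for C1qb, −0.0870 to 0.29 for C1qc, −0.47 to 0.10 for Cd68 and −0.40 to 0.0181 for Mrc1. With TPM C1qc was at −0.0267, and Ly6c2 was at 0.0739 with a pseudocount of 0.01 and at 0.0937 with voom.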
